A study of Arabidopsis thaliana with 6 samples.

Results

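The cytosolic ribosome of Arabidopsis thaliana is made of ribosomal RNA and of ribosomal proteins encoded in the nucleus, and 44 of these protein genes are described here. They were listed by gene identifier, with earlier results of these data known. Of these rows of the count tables, 20 carry genes of the 40S subunit and 15 of the 60S subunit. Another 8 carry the acidic P proteins of the 60S stalk, and 1 carries RACK1A. All 44 were among the 32744 genes counted. The 6 RNA-seq libraries were made from whole seedlings at Boyes stage 1.04, grown on medium without treatment. The 3 libraries of the mutant genotype are labelled as a gene knockout, a double mutant of AT4G15640 and AT3G21465, and the other 3 are labelled wild type. The series' title calls the mutated genes uncharacterised mitochondrial proteins, and total RNA was depleted of ribosomal RNA, converted to strand-specific libraries and read from a single end. The titles name the mutant mtran1-2-2-1 without explaining the name. The labels do not describe the mutations, the ecotype or the number of plants per library, and do not state that replicates were separate plants or cultures. The design text speaks of 2 biological replicates while the titles number 3, so p-values measure the spread between these libraries only.

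Ribosomal proteins are needed in fixed proportion to each other, and in plants most of them are encoded by small families of similar genes spread over the chromosomes. The genes are strongly expressed in growing tissue. Their promoters often carry short elements named site II and telo box, and phosphorylation of the 40S protein S6 by S6 kinase, downstream of the TOR kinase, is a classical readout of growth signalling.

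Library totals were 62235559 to 78671470 counts in the libraries labelled double mutant and 53193772 to 77446157 in wild type. Nuclear genes took 46.7% to 51.3% of the counts in the libraries labelled double mutant and 41% to 43.3% in wild type, the rest falling on organelle genes. Levels are given in CPM, counts per 1000000 counts of the library total after the trimmed-mean adjustment of edgeR, and log2 fold changes run double mutant over wild type. AT3G21465 had 4.72, 4.32 and 4.8 CPM in the libraries labelled double mutant, against 7.87, 8.45 and 7.46 CPM in wild type (log2 fold change -0.78 ± 0.08 SE, edgeR adjusted p = 8.95e-05). AT4G15640 had 12.7, 13.3 and 14.2 CPM in the libraries labelled double mutant, against 11.2, 13.2 and 11.5 CPM in wild type, and the groups overlapped (log2 fold change 0.16 ± 0.08 SE, edgeR adjusted p = 0.121). Without wild-type library 2, AT4G15640 passed as higher, at 0.24. Its level did not separate the labels, which are used here as given.

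Relative to the bulk of nuclear transcripts, the ribosomal protein genes were lower together, by modest amounts, in the libraries labelled double mutant. Of the 44 genes, 35 fell, 1 rose and 8 did not pass the test (edgeR quasi-likelihood test, Benjamini-Hochberg adjusted p under 0.05 over 21805 genes). Over all genes tested, 26% were called lower, 26.3% higher and 52.4% in either direction. The median log2 fold change of the 44 genes was -0.33, which is 20.2% lower, while that of all tested genes was 0.01. The interquartile range of the members' log2 fold changes ran between -0.42 and -0.25, against -0.32 and 0.29 over all tested genes. The gene that rose was AT5G39850, a minor copy of the 40S protein S9, with a fold change of 2.71. In 35 of the 44 genes every library labelled double mutant lay below every wild-type library, a pattern shown by 29.8% of all tested genes. The reverse, no overlap with the libraries labelled double mutant higher, held for 1 of the 44 (AT5G39850) and for 32.1% of all tested genes. Called decreases ran between 14.8% and 32.4%, and no member was lower by 2-fold or more.

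This fall is relative, and its presence depends on what the libraries are scaled to. With library totals in place of the trimmed-mean adjustment, a setting chosen after seeing the data, 1 member was called lower and 1 higher, and the members' median log2 fold change was -0.00. That scaling called 2595 of the 21805 tested genes lower and 11418 higher. It raised the median of all tested genes by 0.32, to 0.33, and the members lay 0.33 below that median. With totals of nuclear counts, 26 members were called lower and 1 higher, beside 4384 lower and 7616 higher of 21551 tested genes. The members' median was then -0.22 against 0.11 for all tested genes. The summed counts of the 44 genes were 0.927%, 1.05% and 1.07% of nuclear counts in the libraries labelled double mutant, against 1.11%, 1.3% and 1.21% in wild type, and the groups did not overlap. As a percentage of all counts, the sums were 0.433%, 0.54% and 0.533% in the libraries labelled double mutant and 0.479%, 0.558% and 0.495% in wild type, and the groups overlapped. In whole-seedling RNA, fewer cells of a strongly expressing type and less RNA per cell cannot be told apart.

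**Figure D1:**
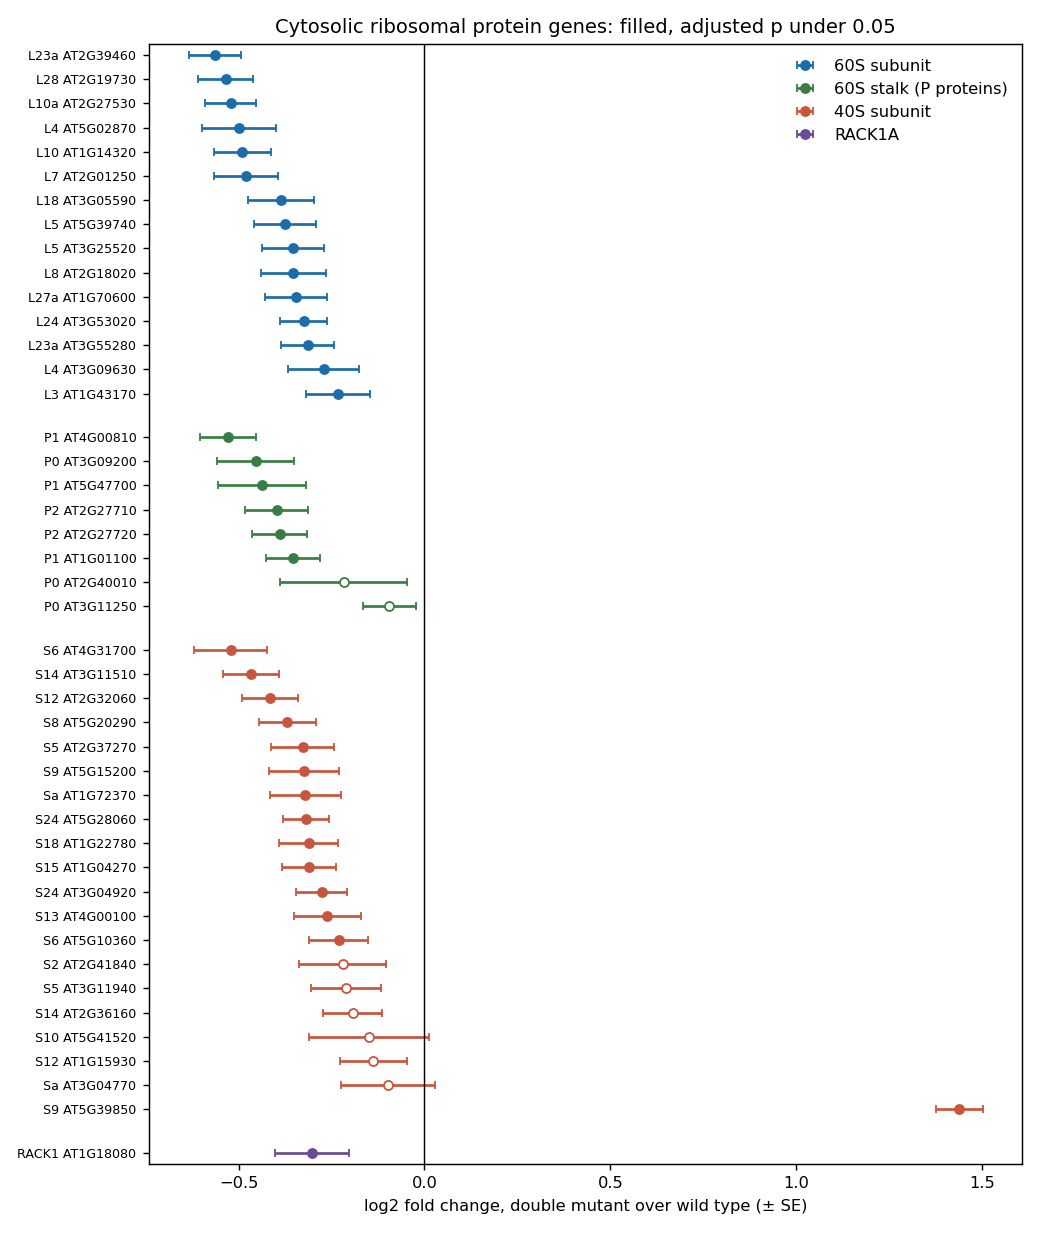
Log2 fold change (double mutant over wild type, x axis) of each of the 44 genes, grouped by ribosomal position, with bars for 1 SE over 3 libraries a group and filled points for adjusted p under 0.05. Points lie left of 0 for 43 genes, and the S9 copy AT5G39850 stands at 1.44.

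The 15 genes of the 60S subunit were all called lower, and their median log2 fold change was -0.37. RPL23AA (AT2G39460) encodes L23a, which sits at the exit of the tunnel through which the nascent chain leaves the ribosome. It had 75.6, 79.9 and 85.7 CPM in the libraries labelled double mutant, against 114, 125 and 118 CPM in wild type, without overlap. Its log2 fold change of -0.56 ± 0.07 SE was the lowest of the 44 (32.4% lower, edgeR adjusted p = 0.000212). AT2G19730, which encodes L28, had 63.7, 63.1 and 68.8 CPM in the libraries labelled double mutant and 89.7, 103 and 90.5 CPM in wild type. Again the groups were apart, and L28 fell by 31% (-0.54 ± 0.07 SE on the log2 scale, edgeR adjusted p = 0.000388).

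PGY1 (AT2G27530) encodes L10a, and its mutants are known for altered leaf polarity. It stood at 95.9, 103 and 103 CPM in the libraries labelled double mutant, against 140.4, 155 and 138 CPM in wild type. The groups were separate, and PGY1 fell by 30.3% (log2 fold change -0.52 ± 0.07 SE, edgeR adjusted p = 0.000311). SAC52 (AT1G14320) encodes L10, the protein that in yeast joins the 60S subunit late in its maturation. It had 131, 145 and 147 CPM in the libraries labelled double mutant, against 187, 212 and 195 CPM in wild type. Every wild-type value was above every value of the libraries labelled double mutant (log2 fold change -0.49 ± 0.08 SE, edgeR adjusted p = 0.000744). Both genes share exact 50-base exon stretches with another copy (AT1G08360 for PGY1 and AT1G66580 for SAC52), so the authors' counting may have divided reads between copies.

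L4, whose loop lines the exit tunnel, is encoded by AT5G02870 and AT3G09630. AT5G02870 had 149, 168 and 169.9 CPM in the libraries labelled double mutant, against 201, 257 and 229.7 CPM in wild type, with no overlap (log2 fold change -0.50 ± 0.10 SE, edgeR adjusted p = 0.00285). AT3G09630 was also lower, at -0.27 ± 0.10 SE (edgeR adjusted p = 0.0409). The copies share 7 exact 50-base windows with each other, so the difference between them is uncertain. AT2G01250, which encodes L7, had 119, 128 and 133 CPM in the libraries labelled double mutant and 163, 197 and 169 CPM in wild type. The libraries fell into separate groups here too (log2 fold change -0.48 ± 0.09 SE, edgeR adjusted p = 0.00168).

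The remaining 60S genes fell by smaller amounts. L5, the carrier of 5S ribosomal RNA, had nearly the same fold change in both copies, -0.35 for ATL5 (AT3G25520) and -0.37 for RPL5B (AT5G39740). STV1 (AT3G53020), the L24 copy known for its part in reinitiation after upstream open reading frames, had a log2 fold change of -0.32. L18 (AT3G05590) stood at -0.39, L8 (AT2G18020) at -0.35, L27a (AT1G70600) at -0.34 and RPL23AB (AT3G55280), the other L23a copy, at -0.31. The L8 and L27a genes share stretches with AT4G36130 and AT1G23290, so their values are uncertain. L3 (AT1G43170), a protein near the peptidyl transferase centre, had the smallest fall of the subunit, at -0.23 ± 0.09 SE (edgeR adjusted p = 0.0485). Without wild-type library 2, wild-type library 3 or any 1 of the 3 libraries labelled double mutant, L3 no longer passed the threshold (adjusted p up to 0.133).

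The P proteins form the flexible stalk of the 60S subunit, where P0 anchors pairs of P1 and P2 that bring elongation factors to the ribosome. Of the 8 stalk genes, 6 fell and 2 did not pass the test, with a median log2 fold change of -0.39. AT4G00810, a P1 gene, had 25.2, 26.9 and 27.1 CPM in the libraries labelled double mutant, against 34.8, 41.8 and 37.5 CPM in wild type. Its groups did not overlap (log2 fold change -0.53 ± 0.08 SE, edgeR adjusted p = 0.000476). The other P1 genes, AT5G47700 and AT1G01100, were at -0.44 and -0.35, and the P2 genes AT2G27710 and AT2G27720 at -0.40 and -0.39. These 4 genes share stretches in pairs, and so their separate values are uncertain. The extent is small, with 1 shared 50-base window for the P1 pair and 11 for the P2 pair.

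P0 is encoded by 3 genes of very different level. The main copy AT3G09200 had 199, 223 and 225 CPM in the libraries labelled double mutant and 255, 336 and 295 CPM in wild type, and it fell by 27% (log2 fold change -0.45 ± 0.10 SE, edgeR adjusted p = 0.00616). AT3G11250 had 22.1, 22.9 and 24.5 CPM in the libraries labelled double mutant, against 23.3, 26.8 and 24.1 CPM in wild type, and AT2G40010 had 3.79, 4.19 and 3.73 CPM in the libraries labelled double mutant, against 3.3, 5.63 and 4.57 CPM in wild type. In both minor copies the groups overlapped, with log2 fold changes of -0.09 ± 0.07 SE and -0.22 ± 0.17 SE (edgeR adjusted p = 0.299 and 0.31). The main copy AT3G09200 overlaps AT3G09210 on its strand by 100 bases, so its value is less certain.

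**Figure D2:**
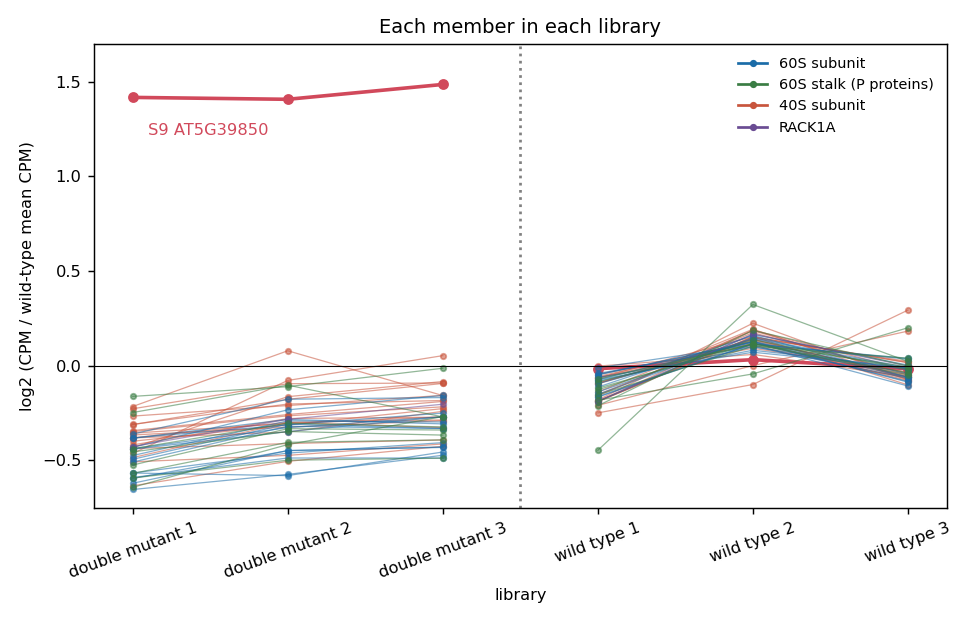
Level of each of the 44 genes in each of the 6 libraries, as log2 of CPM over its own wild-type mean CPM (y axis), with thin lines only joining the points of a gene within a group. Wild-type library 2 is the highest library in 40 genes and double mutant library 1 the lowest in 41 genes, while AT5G39850 lies above the rest in all 3 libraries labelled double mutant.

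Of the 20 genes of the 40S subunit, 13 fell, 1 rose and 6 did not pass the test, and the median log2 fold change was -0.29. Per kilobase of exon, the highest level of the 44 genes belonged to S8 (AT5G20290), with 191 CPM per kb in the libraries labelled double mutant and 247 CPM per kb in wild type. S8 had 197, 224 and 219.9 CPM in the libraries labelled double mutant, against 264, 294 and 269.6 CPM in wild type. All wild-type values were the higher ones (log2 fold change -0.37 ± 0.08 SE, edgeR adjusted p = 0.00385). By the same measure the lowest level belonged to the P0 copy AT2G40010, with 2.64 CPM per kb in the libraries labelled double mutant and 3.05 CPM per kb in wild type.

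S6, the substrate of S6 kinase, comes from 2 genes that fell by different amounts. RPS6 (AT4G31700) had 109.9, 120.2 and 127 CPM in the libraries labelled double mutant, against 155, 195 and 162 CPM in wild type, without overlap (log2 fold change -0.52 ± 0.10 SE, edgeR adjusted p = 0.00222). AT5G10360 (named EMB3010 in the annotation) had 142, 153 and 155 CPM in the libraries labelled double mutant, against 165, 193 and 170.3 CPM in wild type. These groups also stayed apart, with a smaller difference (log2 fold change -0.23 ± 0.08 SE, edgeR adjusted p = 0.0358). That call was lost in 5 of the 6 fits that left out 1 library, all but the one without wild-type library 1, with adjusted p up to 0.0966.

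S9 lies beside the channel through which mRNA enters the small subunit, and its 2 genes had log2 fold changes of opposite sign. AT5G39850 had 14.4, 14.3 and 15.1 CPM in the libraries labelled double mutant, against 5.33, 5.51 and 5.33 CPM in wild type. Every library labelled double mutant was far above every wild-type library (log2 fold change 1.44 ± 0.06 SE, edgeR adjusted p = 1.06e-06). AT5G15200, the main copy by counts, had 176, 179.8 and 194 CPM in the libraries labelled double mutant and 201, 255 and 232 CPM in wild type. All its wild-type values were the higher ones (log2 fold change -0.32 ± 0.09 SE, edgeR adjusted p = 0.0178), though without wild-type library 2 its adjusted p was 0.0512. AT5G39850 was called higher under every alternative tried, with log2 fold changes between 1.41 and 1.76, whereas AT5G15200 stood at 0.00 when scaled to library totals.

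AT5G39850 lies on chromosome 5, positions 15949910 to 15951475, plus strand, with 3 exons, and AT5G15200 on chromosome 5, positions 4934810 to 4936429, minus strand, with 2 exons (TAIR10). Neither shares a 50-base exon stretch with another gene or overlaps a gene on its strand. The neighbours of AT5G39850 did not pass the test. AT5G39840, 487 bases upstream, stood at 0.10 ± 0.08 SE on the log2 scale (edgeR adjusted p = 0.339), and PRE1 (AT5G39860), 5892 bases downstream, had -0.40 ± 0.41 SE (edgeR adjusted p = 0.439).

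Promoters are shown for the S9 and S6 pairs, because their copies differed most in fold change or in family share. Each line gives the 250 bases before the annotated gene start, read in the direction of transcription from the RefSeq genome TAIR10.1, and capitals mark site II (TGGGCC or TGGGCT, on either strand, hence also GGCCCA or AGCCCA) and telo box matches (AAACCCTA on either strand).
AT5G39850, S9, chr5:15949660-15949909, plus strand: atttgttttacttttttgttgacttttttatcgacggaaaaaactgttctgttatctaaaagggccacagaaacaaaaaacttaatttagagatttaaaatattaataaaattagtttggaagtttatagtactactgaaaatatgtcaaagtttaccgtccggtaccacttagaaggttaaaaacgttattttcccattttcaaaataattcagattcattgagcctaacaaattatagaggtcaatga
AT5G15200, S9, chr5:4936430-4936679, minus strand: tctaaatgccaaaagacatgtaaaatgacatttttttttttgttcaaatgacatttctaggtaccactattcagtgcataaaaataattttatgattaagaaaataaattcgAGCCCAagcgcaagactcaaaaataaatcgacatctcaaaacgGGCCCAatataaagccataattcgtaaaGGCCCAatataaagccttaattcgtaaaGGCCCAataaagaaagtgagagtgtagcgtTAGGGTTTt
AT4G31700, S6, chr4:15347805-15348054, minus strand: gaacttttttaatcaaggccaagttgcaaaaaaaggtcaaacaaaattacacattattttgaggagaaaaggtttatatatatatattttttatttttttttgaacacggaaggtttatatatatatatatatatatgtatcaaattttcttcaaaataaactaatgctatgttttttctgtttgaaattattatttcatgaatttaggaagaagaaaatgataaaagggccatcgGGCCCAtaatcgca
AT5G10360, S6, chr5:3260255-3260504, minus strand: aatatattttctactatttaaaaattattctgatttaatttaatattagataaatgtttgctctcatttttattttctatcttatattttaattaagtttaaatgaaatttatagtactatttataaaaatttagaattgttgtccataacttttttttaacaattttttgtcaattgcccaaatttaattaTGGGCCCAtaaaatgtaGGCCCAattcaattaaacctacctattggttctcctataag

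AT5G39850 held no match to either motif upstream of its start, and had 2 site II matches just after it, at bases 5 and 12. AT5G15200 held 4 site II matches, beginning 138, 95, 67 and 39 bases before the start, and 1 telo box beginning 9 bases before it. RPS6 (AT4G31700) had 1 upstream site II match, 14 bases before the start, and another at base 7 after it. AT5G10360 had 3 upstream site II matches, at 58, 56 and 41 bases before the start, of which the first and the second overlap on opposite strands in a palindrome, and a telo box at base 24 after the start.

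Site II and telo boxes were common in the 44 genes. In a window of 300 bases, 250 before the start and 50 after it, 79.5% of the 44 genes held a site II match, against 75.1% of 181 other cytosolic ribosomal protein genes and 21.7% of all 27443 protein-coding genes. A telo box was in 43.2% of the 44 genes, against 48.1% of the other ribosomal protein genes and 6.22% of all protein-coding genes. With upstream bases alone, site II was in 65.9% of the 44 genes, 68.5% of the other ribosomal protein genes and 19.2% of all protein-coding genes, and a telo box in 13.6%, 21% and 4.49% of these sets. Among the 44, fold changes with and without each motif were as follows. Of the 35 genes with site II, 27 were called lower (median log2 fold change -0.32), and of the 9 without it, 8 were called lower (median -0.33). Of the 19 genes with a telo box, 14 were called lower (median -0.32), and of the 25 without it, 21 (median -0.39). RPL23AA, with the largest fall, held neither motif in its window. A match of letters is a description and was not tested as a binding site.

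**Figure D3:**
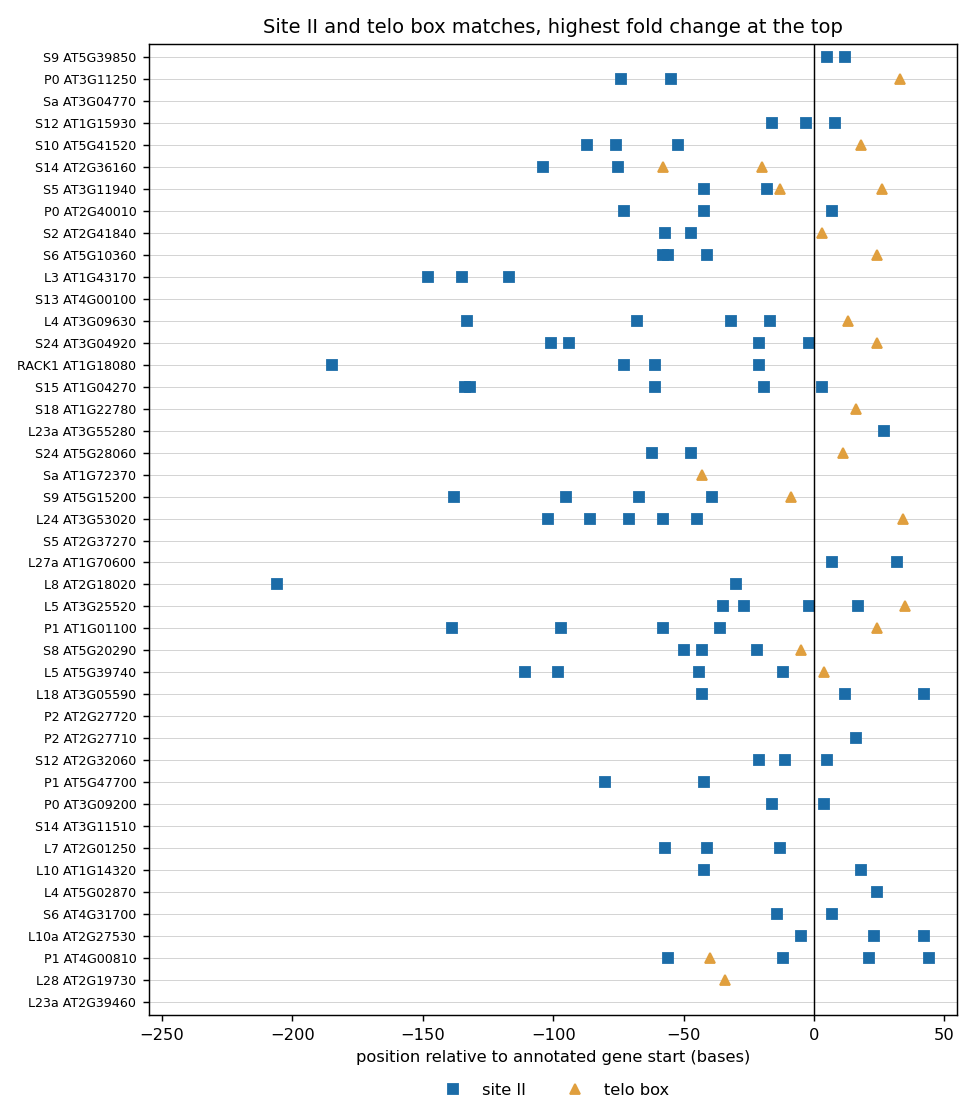
Position of site II (squares) and telo box (triangles) matches relative to the annotated gene start, in bases (x axis), for the 44 genes ordered by log2 fold change with the highest at the top. Site II matches lie mostly within the last 150 bases before the start, while most telo box matches begin after it. AT5G39850, with 2 site II matches, is among several genes whose site II matches all lie after the start.

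The other 40S genes that fell were S14 (AT3G11510, log2 fold change -0.47), S12 (AT2G32060, -0.41), RPS5B (AT2G37270, -0.33), the Sa gene AT1G72370 (-0.32), both S24 genes (AT5G28060, -0.32, and AT3G04920, -0.28), PFL (AT1G22780, -0.31), RPS15 (AT1G04270, -0.31) and RPS13A (AT4G00100, -0.26). PFL encodes S18 and is named for the pointed first leaf of its mutant. Sa (also called P40) is a protein of the 40S back near the mRNA exit. RPS13A was the only called member whose groups overlapped, with 71, 75.3 and 79 CPM in the libraries labelled double mutant and 79, 99.7 and 91.5 CPM in wild type.

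The 6 genes of the 40S subunit that did not pass had negative fold changes too. RPS5A (AT3G11940), known for its strong expression in dividing cells, had 127, 132 and 137 CPM in the libraries labelled double mutant, against 134, 174 and 150.3 CPM in wild type, with overlap (log2 fold change -0.21 ± 0.10 SE, edgeR adjusted p = 0.0933). S14 (AT2G36160) stood at -0.19 ± 0.08 SE without overlap between groups (edgeR adjusted p = 0.0701). S2 (AT2G41840) was at -0.22, RPS10B (AT5G41520) at -0.15, S12 (AT1G15930) at -0.14 and RPSAb (AT3G04770) at -0.10, all with overlapping groups (edgeR adjusted p between 0.148 and 0.547). RACK1A (AT1G18080, named ATARCA in the annotation), a scaffold protein on the head of the 40S subunit, had 143, 158 and 167 CPM in the libraries labelled double mutant and 169, 216 and 192 CPM in wild type. It fell by 18.9% without overlap (log2 fold change -0.30 ± 0.10 SE, edgeR adjusted p = 0.031), and the call was lost without wild-type library 2 or 3 or without library 1 or 2 labelled double mutant (adjusted p up to 0.0929).

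The share of 1 copy in the summed counts of its family's copies among the 44 does not depend on how libraries are scaled. There were 13 families with 2 or more of the 44 genes, and 3 of them (L4, P1 and P2) have copies that share stretches and are left aside. In 9 of the other 10, at least 1 copy had shares that did not overlap between groups. In level, a measure unlike shares, 29.8% of all tested genes lay without overlap lower in the libraries labelled double mutant, and 32.1% higher. Separation of the groups in level alone is thus common in these libraries. For shares, separation in either direction was counted, and no percentage over all gene families was computed. AT5G39850 took 7.59%, 7.37% and 7.25% of the counts of the 2 S9 genes in the libraries labelled double mutant, against 2.59%, 2.12% and 2.25% in wild type. Despite its rise, summed S9 levels were 198 ± 9.83 CPM in the libraries labelled double mutant and 235 ± 27.3 CPM in wild type (SD, n = 3 each).

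In the S6 family, AT5G10360 took 55.8% ± 0.727 of the counts in the libraries labelled double mutant and 50.8% ± 0.925 in wild type (SD, n = 3 each). Of the counts of the S14 genes AT2G36160 and AT3G11510, AT2G36160 had 47.2% ± 1.13 in the libraries labelled double mutant and 42.6% ± 0.443 in wild type. These S14 shares leave out AT3G52580, another S14 gene outside the 44, which averaged 25.8 CPM in the libraries labelled double mutant and 31.3 CPM in wild type. In the S12 family, AT1G15930 had 62.8% ± 0.931 in the libraries labelled double mutant and 58.2% ± 2 in wild type. RPL23AB had 29.7% ± 0.381 of L23a counts in the libraries labelled double mutant, against 26.2% ± 1.09 in wild type. The P0 copy AT3G11250 had 9.56% ± 0.352 in the libraries labelled double mutant, against 7.66% ± 0.533 in wild type. Shares moved by 1.65 percentage points for RPS5A and by less than that for L5, Sa and S24, and the S24 shares overlapped between groups. AT2G32060 (S12), AT3G09200 (P0) and RPSAb (Sa) overlap a gene on their strand, by 133, 100 and 132 bases. Shares in the S12, P0 and Sa families are thus less certain. No test was run on any of the shares.

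**Figure D4:**
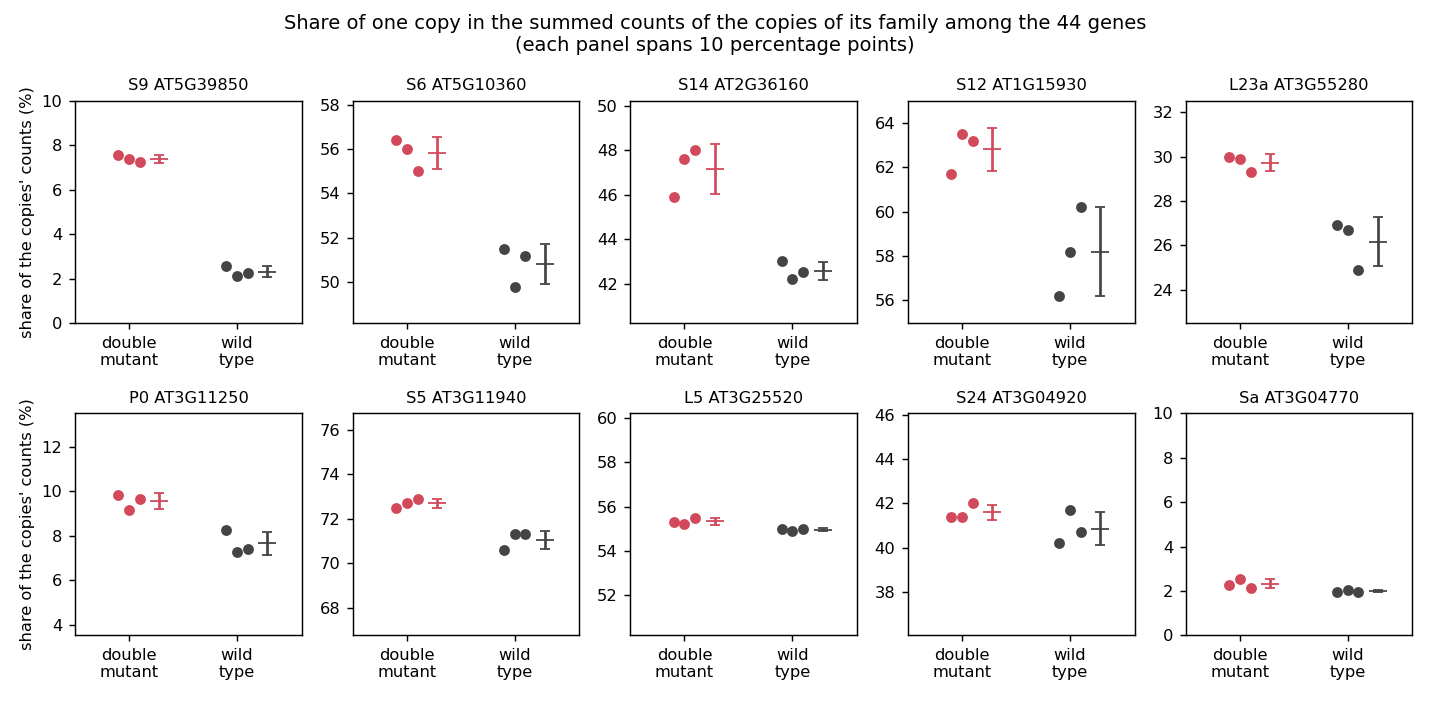
Share of 1 copy in the summed counts of those copies of its family that are among the 44 genes (percent, y axis; S14 without AT3G52580) in the 3 libraries labelled double mutant and the 3 wild-type libraries, with the mean and SD beside the points; every panel spans 10 percentage points and only the S9 and Sa panels start at 0. The S9 copy AT5G39850 lies between 7.25% and 7.59% in the libraries labelled double mutant and between 2.12% and 2.59% in wild type.

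The rest of the cytosolic ribosomal protein genes moved with the 44. Of 181 others listed, 12 had too few counts to be tested, 139 of the 169 tested fell and 4 rose, with a median log2 fold change of -0.34. The lowest adjusted p-values among those that fell belonged to AT2G37600 (L36, log2 fold change -0.62), AT4G31985 (L39, -0.55), AT5G27770 (L22, -0.51) and AT5G02610 (L35, -0.49). When scaled to library totals, 3 of these 169 genes were called lower and 17 higher. Of all 21805 tested genes, 2595 were then called lower and 11418 higher.

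The 4 that rose each took fewer counts than another gene of their family, as AT5G39850 does within S9. That does not set them apart, because other minor copies fell, such as AT4G10450 (L9, log2 fold change -0.51) and AT4G13170 (L13a, -0.44). The S16 gene AT3G04230 had 6.84, 7.85 and 7.9 CPM in the libraries labelled double mutant, against 4.81, 4.61 and 4.51 CPM in wild type (log2 fold change 0.70 ± 0.09 SE, edgeR adjusted p = 0.000195). Its groups did not overlap, while the main S16 gene AT5G18380 was lower, at -0.34 ± 0.07 SE (edgeR adjusted p = 0.00314). The S23 gene AT3G09680 had 0.919, 0.901 and 0.974 CPM in the libraries labelled double mutant and 0.33, 0.346 and 0.308 CPM in wild type (log2 fold change 1.5 ± 0.18 SE, edgeR adjusted p = 0.0002). It shares stretches with AT5G02960, the main S23 gene, which fell (-0.40 ± 0.08 SE, edgeR adjusted p = 0.00304), so its value is uncertain.
The P2 gene AT3G28500 had 0.416, 0.864 and 0.551 CPM in the libraries labelled double mutant, against 0.103, 0.211 and 0.234 CPM in wild type, from as few as 5 counts in a library (log2 fold change 1.68 ± 0.38 SE, edgeR adjusted p = 0.00546). AT3G13580, an L7 gene, was at 0.23 ± 0.07 SE (edgeR adjusted p = 0.027).

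**Figure D5:**
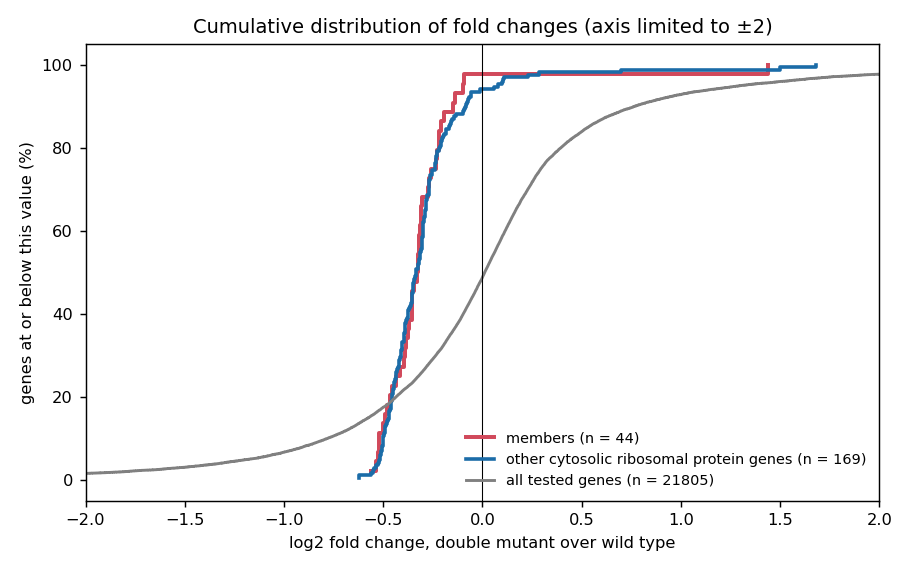
Cumulative share of genes (percent, y axis) at or below each log2 fold change (x axis, shown between -2 and 2) for the 44 genes, 169 other cytosolic ribosomal protein genes and all 21805 tested genes. Curves of both ribosomal sets rise near -0.33 and -0.34, their medians, and that of all genes near 0.01.

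The lists of genes that build or use the ribosome had their own counts. Of 30 ribosome assembly genes, 2 rose, 2 fell and 26 did not pass, with a median log2 fold change of 0.02. That is 6.67% in each direction, against 26.3% higher and 26% lower of all tested genes. AT2G27200, which encodes an LSG1-type GTPase of late 60S maturation, averaged 12.4 ± 0.524 CPM in the libraries labelled double mutant and 8.52 ± 0.102 CPM in wild type (SD, n = 3 each; log2 fold change 0.54, edgeR adjusted p = 0.000143). AT4G31420, of the REIL family of 60S maturation factors, rose by 0.36 on the log2 scale (edgeR adjusted p = 0.000749). AT3G03920 (GAR1, a protein of the particles that pseudouridylate ribosomal RNA) and AT1G52930 (BRX1) fell by 0.53 and 0.27 on the same scale (edgeR adjusted p = 0.00956 and 0.0234). Under library totals, 23 of the 30 were called higher, as were 11418 of all 21805 tested genes.

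Of 36 translation factor genes, 3 rose and 9 fell, with a median log2 fold change of -0.11. The 25% that fell were close to the 26% of all tested genes, and 8.33% rose, against 26.3%. ELF5A-3 (AT1G69410), a copy of the elongation factor eIF5A, averaged 47.4 ± 1.25 CPM in the libraries labelled double mutant and 30.7 ± 0.963 CPM in wild type (SD, n = 3 each; log2 fold change 0.62, edgeR adjusted p = 3.18e-05), and it overlaps AT1G69400. AT2G18110 and eEF-1Bb1 (AT1G30230), which encode subunits of the exchange factor eEF1B and share stretches with each other, were at 0.22 and 0.19. LSP1 (AT5G35620, a cap-binding protein), EIF4A1 (AT3G13920, an RNA helicase of initiation), PAB4 (AT2G23350, a poly(A)-binding protein) and TIF3H1 (AT1G10840, a subunit of eIF3) fell by 0.40, 0.41, 0.39 and 0.21 on the log2 scale. EIF4A1 overlaps AT3G02795, so its value is uncertain. With library totals, 16 of the 36 were called higher, as were 11418 of all 21805 tested genes.

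Of 7 genes around TOR and S6 kinase, 3 rose and 0 fell, also 0 at an unadjusted p under 0.05 and with DESeq2 or limma. Among all tested genes, 26.3% were called higher and 26% lower. S6K2 (AT3G08720) had 14.8, 15.6 and 13 CPM in the libraries labelled double mutant, against 8.12, 6.99 and 7.66 CPM in wild type (log2 fold change 0.93 ± 0.09 SE, edgeR adjusted p = 5.23e-05). The other S6 kinase gene, PK1 (AT3G08730, S6K1), had 20.4, 20.7 and 21.3 CPM in the libraries labelled double mutant and 14.4, 14.9 and 14.6 CPM in wild type (log2 fold change 0.51 ± 0.05 SE, edgeR adjusted p = 8.37e-05). In both genes the groups were apart. They share 10 exact 50-base windows with each other, so the split between them is uncertain. LST8-1 (AT3G18140), a partner of TOR, rose by 0.17 on the log2 scale (edgeR adjusted p = 0.02).

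Summed marker levels of dividing cells, leaf, root and flower did not overlap between the groups, and those of seed did. Such separation was common for single genes, at 29.8% lower and 32.1% higher of all tested genes, and 26% were called lower. Summed levels of 7 genes of dividing cells were 41.5 to 50.04 CPM in the libraries labelled double mutant and 56.2 to 74.5 CPM in wild type, and 4 of the 7 were called lower, with log2 fold changes of -0.82 (SYP111), -0.46 (CDKB2;1), -0.40 (CDKB2;2) and -0.39 (PCNA2). Of the 3 not called, STM was at 0.46 ± 0.40 SE, PCNA1 at -0.35 and CYCB1;1 at -0.25. The 4 leaf markers summed to 6744 to 7734 CPM in the libraries labelled double mutant and 10777 to 12647 CPM in wild type, with 3 of 4 called lower. The 5 root markers summed to 22.2 to 23.5 CPM in the libraries labelled double mutant, against 28.7 to 46 CPM in wild type, with 3 called lower and 1 higher. The 4 floral markers summed to 0.257 to 0.494 CPM in the libraries labelled double mutant and 1.55 to 1.76 CPM in wild type. Most of that difference was SEP3, with 0.0857, 0.259 and 0.0706 CPM in the libraries labelled double mutant and 1.36, 1.48 and 1.41 CPM in wild type, while PI was not called (log2 fold change 0.56) and AG and AP3 had too few counts to be tested. The 7 seed markers summed to 0.0988 to 2.69 CPM in the libraries labelled double mutant, against 0.482 to 4.63 CPM in wild type. No listed marker was at 0 in all libraries. Whether these markers, or the larger nuclear share in the libraries labelled double mutant, have a part in the fall of ribosomal protein transcripts was not tested.

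Individual libraries carried part of the size of the fall. Without wild-type library 2, 29 of the 44 genes were called lower, and without double mutant library 1 the count was also 29, while it was 39 without wild-type library 1. The members' median log2 fold change was -0.28 without wild-type library 2 and -0.31 without double mutant library 1. Leaving out 1 library ended the calls of AT3G09630 (adjusted p up to 0.125, lost in 4 of the 6 such fits, not without wild-type library 1 or double mutant library 3), RPS13A (adjusted p up to 0.114, lost in all but that without wild-type library 1) and the Sa gene AT1G72370 (adjusted p = 0.0574 without double mutant library 1). Without wild-type library 1, RPS5A, AT2G40010, AT1G15930 and AT2G41840 passed as lower (adjusted p between 0.017 and 0.0414). Of the 36 called genes, 29 kept their call under all 12 alternatives that left the trimmed-mean or median-ratio centring in place. Among the 31 genes that share no exon stretch with another gene, 23 fell and 1 rose. Of the 44, 6 overlap a gene on the same strand, by up to 133 bases.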

How the data were processed

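RNA-seq of 3 libraries labelled double mutant and 3 wild type was analysed. Per the file headers, the authors deposited raw read counts per gene, made with featureCounts 2.0.0. STAR and TAIR10 are the aligner and build named, per the submitters' processing notes, which here give no version of STAR. All 32548 nuclear genes matched the TAIR10.1 annotation by locus, 99.95% with the same coordinates.

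The test was that of edgeR 4.0.16, run in R 4.3.3 (filterByExpr, trimmed-mean scaling, group as the only term, quasi-likelihood test, two-sided, Benjamini-Hochberg over 21805 genes). It was checked on simulated data of 21617 genes, with 50 genes changed at each size. There, 100% were called at a true log2 fold change of -0.6 and 92% at 0.6. At -0.3 and 0.3 the shares were 14% and 16%. The simulated data held far fewer changed genes than were called here, so these shares do not carry over directly. Standard errors were the log2 fold change over the root of the F statistic. Replicate numbers were not used to pair the samples in the main test. Same-numbered libraries had deviation correlations of 0.19, 0.07 and -0.00, and differently numbered ones between -0.145 and 0.095. With 3 libraries a group, these values cannot exclude pairing. Libraries of a group differed from each other by more than sampling noise, and all 6 were kept. Alternatives were DESeq2 1.42.0 size factors and Wald test, limma 3.58.1 voom, nuclear genes only, no filter, a replicate block, leaving out each library and, added after seeing the data, library or nuclear totals.

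The 44 members and the other lists were chosen with earlier results of these data known. Values in every library are given for the called members with the 8 largest fold changes in each direction, for copies of opposite sign in a family, and for the highest level per kb. From other lists, up to 4 called genes with the smallest adjusted p in each direction are named, with a fold change and for some the level in each library. Further members were named after their values were seen. Near-identical genes share an exact 50-base exon stretch.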

Additional observations from a re-analysis of the deposited data

How the results depend on the processing

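The setting that changed most was the centring of the libraries. With library totals, 2595 genes were called lower and 11418 higher over all tested genes (81.5% of calls higher, against 50.3%), 1 of the 44 members lower, 3 of the other ribosomal protein genes lower and 17 higher, 0 assembly genes lower and 23 higher, 0 translation factor genes lower and 16 higher, and 6 TOR and S6 kinase genes higher. Under it 23 of the 44 members had log2 fold changes below 0. Members called lower with the trimmed-mean adjustment but above 0 with library totals were AT1G43170 0.0938, AT3G09630 0.0566, AT3G55280 0.0092, AT5G10360 0.0943, AT4G00100 0.0637, AT1G22780 0.0132, AT1G04270 0.0133, AT5G15200 0.0001, AT1G18080 0.0235, AT1G72370 0.0059, AT3G04920 0.0479 and AT5G28060 0.0046. With nuclear totals, 4384 of 21551 tested genes were called lower and 7616 higher (63.5% of calls higher). There, 1 assembly gene was lower and 6 higher, and 4 translation factor genes were lower and 8 higher. Counting only members without near-identical genes gave 23 lower, and the summed member share had a log2 ratio of -0.0258 as a percentage of all counts, against -0.2475 of nuclear counts. Leaving out 1 library at a time gave 29 to 39 members lower, 1 to 2 assembly genes lower and 2 to 5 higher, and 4 to 11 translation factor genes lower and 1 to 3 higher. The cause of these shifts was not tested. With the replicate block, 36 members were called lower and 1 higher, 4 assembly genes were higher against 2 without it, and the remaining list counts stayed within 1.5 times. DESeq2's Wald test also called 36 members lower. AT5G39850 was called higher in all settings run. Members had between 160 and 26730 counts in a library, and the SE of their log2 fold changes ran between 0.06 and 0.17.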
